A study of Mus musculus with 6 samples.

Results

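Genes of itaconate, nitric oxide, arginine and polyamine metabolism were examined in primary microglia (PM) of mice. The set was a list of 10 gene symbols, Irg1, Nos2, Arg1, Arg2, Ass1, Slc7a2, Gch1, Odc1, Azin1 and Sat1, and 10 of 10 were matched among the 24411 genes of the count tables. PM were shaken off mixed glial cultures made from the pooled brains of 3-day-old ICR mice, 12 animals to a pool, and the labels name no genetic alteration. In the GSK-J4 group, 3 libraries came from cells given GSK-J4 alone at 10 μM, and in the LPS + GSK-J4 group, 3 libraries came from cells given the same dose with LPS at 10 ng/ml, both for 4 h. GSK-J4 inhibits the jumonji demethylases of lysine 27 on histone H3, and LPS is a bacterial wall component that activates TLR4. Both groups therefore carried the inhibitor, so the comparison gives the response to LPS that was seen in its presence. Cells without treatment or with LPS alone were not analysed here, and how far the inhibitor lowered a gene was not measured. The study describes the replicates as biological ones from independent experiments, the labels do not say how they were made, and the p-values measure the spread between these libraries.

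Activated macrophages and microglia take metabolites of arginine and of the tricarboxylic acid (TCA) cycle as raw material for effector molecules. Irg1, also named Acod1, makes the antibacterial and immunoregulatory metabolite itaconate from the TCA intermediate cis-aconitate. The inducible nitric oxide synthase Nos2 turns arginine into nitric oxide and citrulline, with the cofactor tetrahydrobiopterin, whose synthesis begins with Gch1, and Ass1 begins the return of citrulline to arginine. The arginases Arg1 and Arg2 compete for the same arginine and yield ornithine, from which Odc1 starts the polyamines. Arginine itself enters through cationic amino acid transporters such as Slc7a2.

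LPS in the presence of GSK-J4 up-regulated the itaconate gene Irg1 17.9-fold and the tetrahydrobiopterin gene Gch1 2.91-fold. The arginine transporter Slc7a2 was 2.74-fold higher, just under the fold required for a call. Nos2 stayed at a few counts per library and Ass1 was listed at 0. The arginases and the polyamine genes differed by less than 1.65-fold either way. The calls required a log2-fold change of 1.5 or more in either direction together with an adjusted p no larger than 0.01, from edgeR's quasi-likelihood test with Benjamini-Hochberg adjustment over the 10133 genes with enough counts. Of the 10 genes, 8 were tested, and Nos2 and Ass1 were not because of low counts. Of these 8, 2 were called up, against 2.95% of all genes tested. No gene of the 8 was called down by edgeR or by DESeq2 (0 in each), against 0.809% of all genes tested, and before adjustment 1 of them (Arg2) had a p under 0.05 in the lower direction. The groups did not overlap for 6 of the 8 genes, against 38.2% of all genes tested. An adjusted p of at most 0.05 was reached by 6 of the 8, against 23.6%, and for Arg1 and Arg2 among them it was lost under 5 of 14 alternatives each. The median log2-fold change was 0.65 over the 8 genes and -0.00064 over all genes. As the genes were chosen with earlier results of these data known, these contrasts describe the set and do not test it.

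The upstream sequences of both called genes are shown so that the letters before the start site can be read beside the values. Both come from RefSeq on build GRCm38.p6, 5′ to 3′ on the strand of the gene, and each covers the 250 bases before the RefSeq start site. Irg1 lies at chr14:103046762-103047011 on the plus strand and Gch1 at chr14:47189414-47189663 on the minus strand. Capitals mark matches to the motifs searched.

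Irg1: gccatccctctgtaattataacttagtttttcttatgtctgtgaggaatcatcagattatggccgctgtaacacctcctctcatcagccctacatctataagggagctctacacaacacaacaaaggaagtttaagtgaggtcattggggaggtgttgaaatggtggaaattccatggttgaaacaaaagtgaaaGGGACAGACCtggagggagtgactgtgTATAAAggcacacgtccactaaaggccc
Gch1: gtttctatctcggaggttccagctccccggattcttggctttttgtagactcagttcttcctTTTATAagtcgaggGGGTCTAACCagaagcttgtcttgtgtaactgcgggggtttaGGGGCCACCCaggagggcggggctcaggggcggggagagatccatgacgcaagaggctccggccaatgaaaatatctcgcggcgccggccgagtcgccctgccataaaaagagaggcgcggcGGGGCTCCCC

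The search covered 7 motifs on both strands, in a window of 250 bases before to 50 bases after the start. They were a kB-like motif (GGG and CC with any 5 bases between them), an ISRE-like motif (GAAA and GAAA with any 2 bases between them), a GAS-like motif (TTCNNNGAA), an AP-1-like motif (TGANTCA), the cAMP response element (TGACGTCA), the E box (CACGTG) and the TATA box (TATAAA). In Irg1, a TATA box began at position -28 and a kB-like match at -55, counted from the RefSeq start, which lies 35 bases inside the start of the GENCODE gene model. In Gch1, kB-like matches began at -174, -132 and -10, and a TATA box lay on the opposite strand at -188. No match shown overlaps another. Of all 32851 promoters of the same length, 50.8% held the kB-like motif and 13.6% a TATA box on either strand. The ISRE-like, GAS-like, AP-1-like, cAMP response and E box motifs, held by 3.44%, 8.30%, 7.81%, 1.79% and 7.15% of promoters, had no match in either window. Such matches are descriptions of letters, and binding was not measured. The table held 5 of the 10 genes, the others being Ass1, Odc1 and Sat1. Matches to the kB-like motif also lay in Ass1, which was not tested, and in Odc1, which was not called. Ass1 held an E box as well, and the 250 bases before the start of Sat1 held no match. The GC content of the 300-base window was 47.0% in Irg1, 60.3% in Gch1 and in Sat1, 74.0% in Ass1 and 78.0% in Odc1.

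Depth and cell composition bear on every value below. Between 2597505 and 3472716 fragments were counted on genes in each library, but the ribosomal RNA feature Rn45s took 22.2% to 32.4% of them in the GSK-J4 libraries and 45.8% to 48.1% in the LPS + GSK-J4 libraries, and without Rn45s, Mir6236 and Lars2 between 1374377 and 2443344 fragments remained. A level of 3 counts, the lower limit used here, was 0.673 to 1.24 CPM (counts scaled to library size by TMM factors). The summed level of 10 microglial markers was 3106 to 3212 CPM under GSK-J4 and 2431 to 2487 CPM under LPS + GSK-J4, and 10 of 10 were detected. Markers of other cells were at lower levels, and some of them moved with the groups. The 8 astrocyte markers summed to 53.9 to 59.4 CPM and 131 to 159 CPM, the 8 oligodendrocyte-lineage markers to 187 to 215 and 361 to 414 CPM, and the 5 neuronal markers to 14.8 to 19.1 and 32.4 to 40.6 CPM, in the same order of groups. The 5 markers of border-associated macrophages went from 264 to 340 CPM down to 156 to 187 CPM. Fibroblast markers (6 genes, 80.1 to 281 CPM and 138 to 427 CPM) overlapped between the groups, 4 endothelial markers summed to 13.9 to 21.2 and 25.0 to 62.4 CPM with Cldn5 at 0, and 4 neutrophil markers to 2.20 to 4.71 and 2.29 to 5.07 CPM, which overlapped, with S100a9 at 0. Leaving the counts of Rn45s, Mir6236 and Lars2 out of the fit gave log2-fold changes of 4.16 for Irg1 and 1.54 for Gch1, as with them. The part of these cells, and of whatever raised the Rn45s share, in the differences below was not tested. In bulk RNA, fewer cells of a type and less RNA per cell cannot be told apart.

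**Figure D1:**
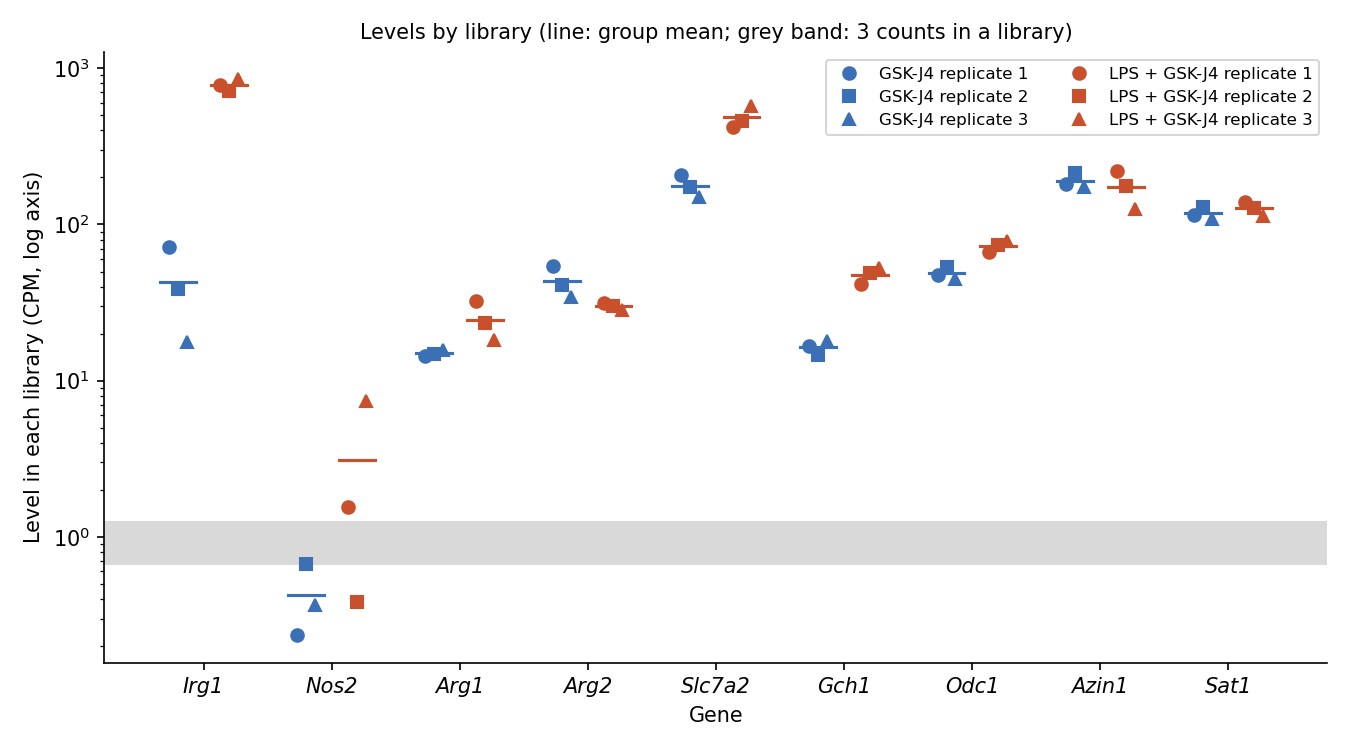
Level of each gene in each library, in CPM on a log axis, for the 9 genes with any count. Blue marks are GSK-J4 and orange marks LPS + GSK-J4, marker shapes give the replicate, lines are group means and the grey band is the level of 3 counts (0.673 to 1.24 CPM). Irg1 stood 1 order of magnitude above its GSK-J4 level in the LPS + GSK-J4 libraries, while Nos2 lay around the band.

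Irg1 (Acod1, chr14:103046977-103056573, plus strand, 5 exon blocks in the GENCODE annotation of mm10) changed most. It had 304, 171 and 48 counts in GSK-J4 replicates 1 to 3 and 1997, 1880 and 2060 in LPS + GSK-J4 replicates 1 to 3. In CPM these were 71.7, 38.4 and 17.6 against 779, 717 and 851. The groups were far apart, but the GSK-J4 libraries were spread over 4.08-fold and the LPS + GSK-J4 libraries over 1.19-fold only. The log2-fold change was 4.16 ± 0.46 (SE, n = 3 per group) with an adjusted p of 0.00131 by edgeR's quasi-likelihood test, rank 24 of 10133 genes. Its biological coefficient of variation was 0.38, at the 99.7th percentile of genes, against 0.133 in common. The size of the change depended on the GSK-J4 library used, and it was 4.75 without GSK-J4 replicate 1 and 3.83 without GSK-J4 replicate 3. The call was lost at adjusted p values of 0.0157, 0.0107 and 0.0233 without GSK-J4 replicate 2, LPS + GSK-J4 replicate 1 and LPS + GSK-J4 replicate 3, within a range of 4.49e-13 to 0.0403 over 14 alternatives by edgeR or DESeq2 that all kept the direction. The 21 counts on the opposite strand were few beside 6460 on the strand of the gene.

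The GSK-J4 libraries fell in the order 1, 2, 3 for Irg1, and the order was looked up in other genes after these values were seen. It was shared by 87 of the 299 genes called up (29.1%) and by 18.0% of all genes tested. The summed fibroblast markers in the same libraries, 281, 80.1 and 94.2 CPM, were highest in replicate 1 as well but did not follow in replicates 2 and 3.

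Of 23 listed genes of the TCA cycle around Irg1, 22 were tested and 0 were called by edgeR, where the shares of all genes (2.95% up and 0.809% down) would give less than 1 call among 22. Their median log2-fold change was -0.05, with 8 above 0. The largest differences were in the isocitrate dehydrogenase subunit Idh3a, with a log2-fold change of 0.61 ± 0.21 and an adjusted p of 0.0457, and in the succinate dehydrogenase subunit Sdhd, with -0.51 ± 0.18 and 0.0465. Idh3a had 18.4, 25.6 and 16.9 CPM under GSK-J4 and 34.3, 35.9 and 24.0 CPM under LPS + GSK-J4, so its groups overlapped. Sdhd had 41.5, 54.5 and 48.8 CPM against 39.8, 35.1 and 26.4 CPM, with every LPS + GSK-J4 library below every GSK-J4 library.

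Nos2 (chr11:78920787-78960254, plus strand, 29 exon blocks) had at most 18 counts in a library. It had 1, 3 and 1 counts under GSK-J4 and 4, 1 and 18 counts under LPS + GSK-J4. In CPM these were 0.236, 0.673 and 0.367 against 1.56, 0.382 and 7.43, so the groups overlapped and a single library, LPS + GSK-J4 replicate 3, held most of the counts. The ratio of the summed counts, 23 over 5 after scaling, was 6.91 with an exact 95% interval of 2.57 to 23.3, and without LPS + GSK-J4 replicate 3 it was 2.20 with an interval of 0.507 to 9.57. These intervals cover counting error only and not the spread between libraries. Without the filter on low counts, edgeR gave a log2-fold change of 2.65 with an adjusted p of 0.00323, which would be a call, and 1.03 with 0.594 once LPS + GSK-J4 replicate 3 was left out. DESeq2 gave 2.79 with an adjusted p of 0.0787. The difference in Nos2 thus rested on LPS + GSK-J4 replicate 3. The neuronal and endothelial synthases Nos1 and Nos3 had at most 1 count in any library.

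Gch1 (chr14:47153895-47189413, minus strand, 6 exon blocks), the first and rate-limiting enzyme of tetrahydrobiopterin synthesis, had 71, 65 and 49 counts under GSK-J4 and 106, 128 and 127 under LPS + GSK-J4. On the CPM scale they were 16.8, 14.6 and 18.0 against 41.4, 48.8 and 52.4, with the groups well apart and little spread in either. The log2-fold change was 1.54 ± 0.18 with an adjusted p of 9.11e-06 by edgeR, rank 298 of 10133, so it stood just above the fold threshold. The call ended on that threshold, not on the p, at 1.45 without GSK-J4 replicate 2, 1.47 without LPS + GSK-J4 replicate 3, 1.49 by DESeq2 and 1.49 without the filter on low counts.

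Beyond Gch1, the genes of nitric oxide and tetrahydrobiopterin gave no call in edgeR among 8 tested of 13 listed. Of all genes tested 2.95% were called up and 0.809% down, so a list this short may well hold no call. The median log2-fold change was 0.06, with 6 of 8 above 0. Ddah1, which breaks down the methylarginines that inhibit nitric oxide synthases, came nearest, with 17.9, 17.5 and 17.6 CPM under GSK-J4 and 49.2, 42.4 and 49.6 CPM under LPS + GSK-J4. Its log2-fold change was 1.41 ± 0.17 with an adjusted p of 1.20e-05, below the fold threshold. The summed astrocyte, oligodendrocyte-lineage, neuronal and endothelial markers were also higher in the LPS + GSK-J4 libraries. Those of microglia and border-associated macrophages were lower, and the part of any of these cells in Ddah1 was not tested. Pts, the enzyme that follows Gch1, had a log2-fold change of -0.86 ± 0.34 and an adjusted p of 0.079. This value lay in the direction opposite to Gch1, without a call.

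**Figure D2:**
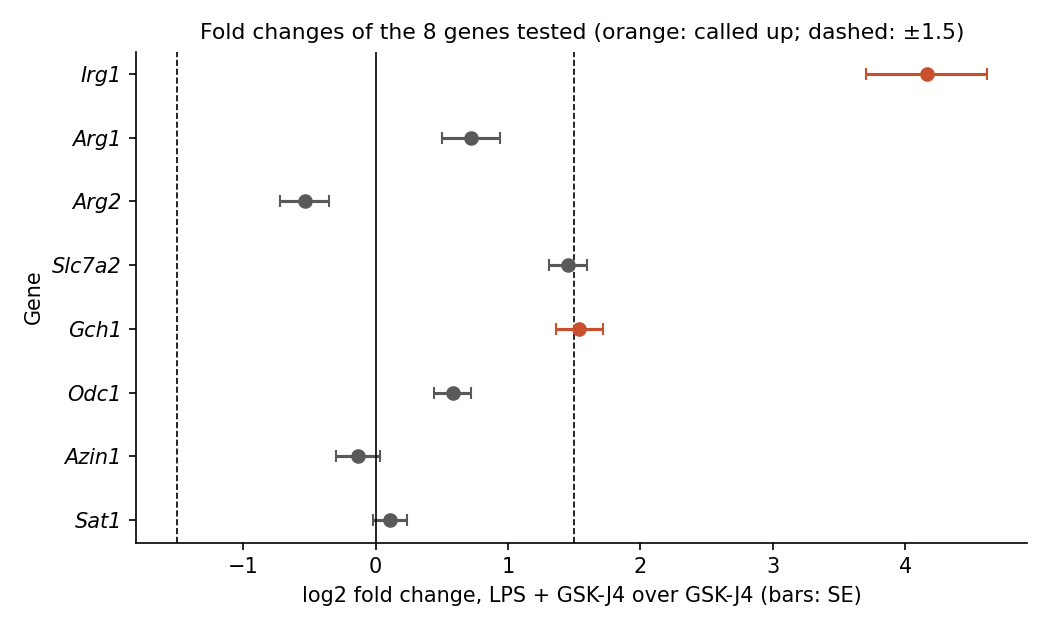
Log2-fold change of LPS + GSK-J4 over GSK-J4 for the 8 genes tested, with bars of 1 SE. Orange marks the genes called up, dashed lines the threshold of 1.5 in either direction; Irg1 (4.16) stood far beyond the line, with Gch1 (1.54) and Slc7a2 (1.45) on either side of it.

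Slc7a2 (chr8:40862396-40922308, plus strand, 15 exon blocks), the inducible cationic amino acid transporter, had 881, 770 and 407 counts under GSK-J4 and 1079, 1209 and 1388 under LPS + GSK-J4. Scaled to CPM, the values were 208, 173 and 149 against 421, 461 and 573, and each LPS + GSK-J4 library lay well above each GSK-J4 library. The log2-fold change was 1.45 ± 0.14 with an adjusted p of 1.85e-06 by edgeR, so only the fold kept it from a call. It was called without GSK-J4 replicate 1 (1.58) and without LPS + GSK-J4 replicate 1 (1.54). An opposite-strand gene, Gm26584, shares 635 of its exonic bases, and 40 counts lay on the opposite strand against 5734 on its own.

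The constitutive transporter Slc7a1 had 82.6 ± 6.25 CPM under GSK-J4 and 108 ± 6.0 CPM under LPS + GSK-J4 (SD, n = 3), a log2-fold change of 0.38 ± 0.13 with an adjusted p of 0.0354. Ratios between genes within a library do not depend on library size, and 5 were computed with 0.5 added to each count. The log2 ratio of Slc7a2 to Slc7a1 was 1.40, 1.12 and 0.731 under GSK-J4 and 2.06, 2.03 and 2.40 under LPS + GSK-J4. The groups did not overlap, and the difference of 1.08 had an exact permutation p of 0.1 (2-sided, adjusted p = 0.167 over the 5 ratios), the smallest that 3 libraries against 3 allow. Of the 14 genes listed for arginine transport and the urea and creatine steps, 8 were tested and 0 were called by edgeR. The shares of all genes tested were 2.95% up and 0.809% down. The median log2-fold change of the 8 was -0.04. The exchanger subunits Slc7a6 and Slc7a7 both had 0.47, with adjusted p values of 0.0805 and 0.049.

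The arginases had values in opposite directions, and neither was called. Arg1 (chr10:24915221-24927484, minus strand, 7 exon blocks), the cytosolic arginase, had 61, 66 and 43 counts under GSK-J4 and 83, 61 and 44 under LPS + GSK-J4. The levels were 14.4, 14.8 and 15.8 CPM against 32.4, 23.3 and 18.2 CPM, with the GSK-J4 libraries nearly level and the other group spread over 1.78-fold. Its log2-fold change was 0.72 ± 0.22 with an adjusted p of 0.0255, and it was 0.47 with 0.159 without LPS + GSK-J4 replicate 1 (range 0.00184 to 0.159 over 14 alternatives by edgeR or DESeq2). Arg2 (chr12:79130777-79156301, plus strand, 8 exon blocks), the mitochondrial arginase, had 231, 182 and 94 counts under GSK-J4 and 81, 79 and 69 under LPS + GSK-J4. In CPM these were 54.5, 40.9 and 34.5 against 31.6, 30.1 and 28.5, so here the GSK-J4 libraries carried the spread. Its log2-fold change was -0.53 ± 0.18 with an adjusted p of 0.0446, and it was -0.34 with 0.281 without GSK-J4 replicate 1 (range 0.00581 to 0.281). Of the exonic bases of Arg2, 401 overlap genes on the opposite strand, and counting without strand left 600 fragments where 736 were counted on its own strand.

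Set against each other within a library, the log2 ratio of Arg2 to Arg1 counts was 1.91, 1.46 and 1.12 under GSK-J4 and -0.035, 0.37 and 0.643 under LPS + GSK-J4. Thus Arg2 counts exceeded Arg1 counts in each GSK-J4 library by a margin that none of the LPS + GSK-J4 libraries had. The difference of -1.17 had an exact permutation p of 0.1 (adjusted p = 0.167). The ratios of Nos2 to Arg1 and to Arg2 overlapped between the groups, with differences of 1.21 (exact permutation p = 0.5) and 2.38 (exact permutation p = 0.2), and without LPS + GSK-J4 replicate 3 these were 0.0355 and 1.36.

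**Figure D3:**
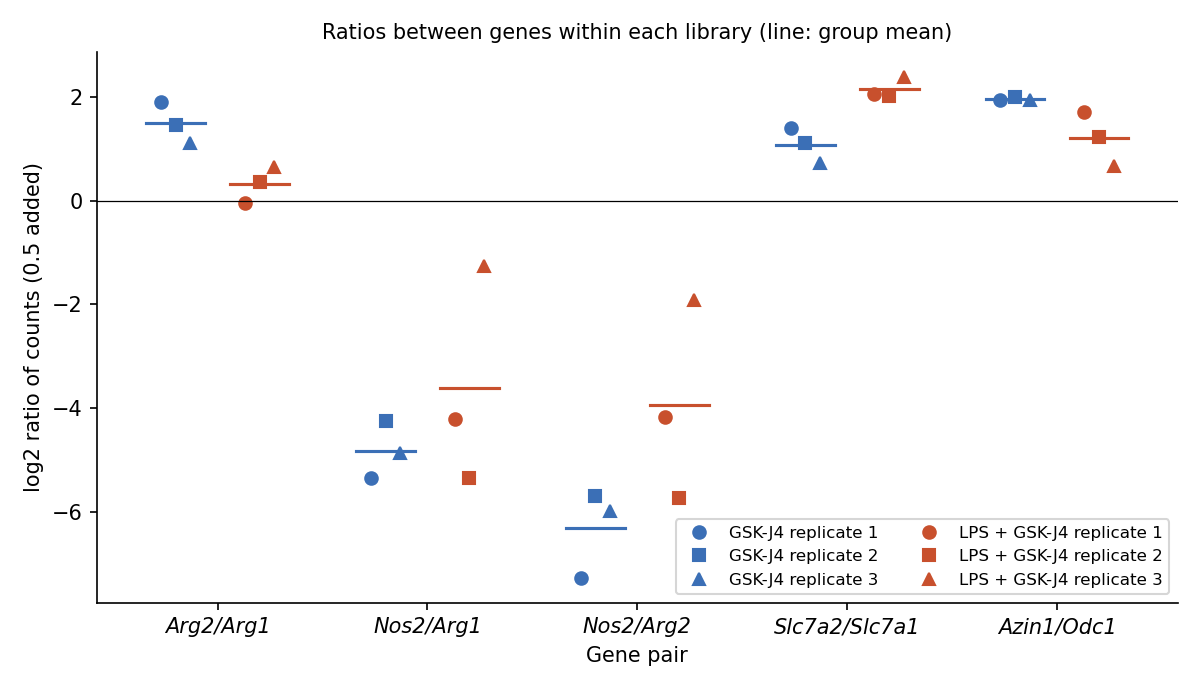
Log2 ratio of the counts of gene pairs within each library, with 0.5 added to each count; blue is GSK-J4, orange LPS + GSK-J4, shapes give replicates and lines are group means. The groups were apart for Arg2/Arg1, Slc7a2/Slc7a1 and Azin1/Odc1, while LPS + GSK-J4 replicate 3 stood alone in both ratios with Nos2.

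Ass1 (chr2:31470207-31520672, plus strand, 16 exon blocks) was listed at 0 on either strand in all 6 libraries, which allows a level of up to 0.673 to 1.24 CPM of uniquely assigned fragments. STAR counted only fragments that mapped once, and 38.7% of the 101-base windows of the longest Ass1 transcript occur also in the processed pseudogene Gm5424, which was at 0 as well. The antizyme gene Oaz1, active in most cells, was likewise listed at 0 with 11.0% of its windows shared, as were Amd1 and Amd2 with 76.2% and 72.6%. A 0 in these tables is therefore not a measure of absence. Whether these 0s came from shared windows or from the annotation used for counting was not tested. Asl, the enzyme after Ass1, had 34.0, 30.3 and 33.0 CPM under GSK-J4 and 23.8, 25.9 and 33.0 CPM under LPS + GSK-J4, with a log2-fold change of -0.23 ± 0.18 and an adjusted p of 0.383. The liver urea cycle genes Otc and Cps1 were listed at 0.

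Among the polyamine genes, Odc1 (chr12:17544794-17551505, plus strand, 7 exon blocks), which decarboxylates ornithine, had 201, 238 and 123 counts under GSK-J4 and 172, 195 and 189 under LPS + GSK-J4. In CPM these were 47.4, 53.4 and 45.1 against 67.1, 74.4 and 78.0, with the groups apart and little spread. The log2-fold change of 0.58 ± 0.14 had an adjusted p of 0.00585 by edgeR but missed the fold threshold. Of its windows 19.2% occur in 7 other genes, among them the processed pseudogene Gm17709, so some of its fragments may not have been counted. Azin1 (chr15:38487427-38519266, minus strand, 15 exon blocks), which shields Odc1 from antizyme, had 182, 214 and 175 CPM under GSK-J4 and 221, 176 and 125 CPM under LPS + GSK-J4. These groups overlapped, and the log2-fold change was -0.13 ± 0.17 with an adjusted p of 0.631. Sat1 (chrX:155213132-155216449, minus strand, 4 exon blocks), which acetylates spermidine and spermine for export and breakdown, had 115, 130 and 109 CPM against 140, 128 and 114 CPM, a log2-fold change of 0.11 ± 0.13 with an adjusted p of 0.604.

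The log2 ratio of Azin1 to Odc1 was 1.94, 2.00 and 1.95 under GSK-J4 and 1.72, 1.24 and 0.679 under LPS + GSK-J4. It was nearly constant in the first group and lower in each library of the second. The difference of -0.75 had an exact permutation p of 0.1 (adjusted p = 0.167), and it was -0.48 without LPS + GSK-J4 replicate 3. Of 17 other polyamine genes 11 were tested and 0 were called by edgeR, against 2.95% up and 0.809% down of all genes tested. Their median log2-fold change was 0.24, with 8 of 11 above 0. The methylthioadenosine phosphorylase Mtap had 0.68 ± 0.21 with an adjusted p of 0.0306, and the polyamine oxidase Paox -0.68 ± 0.28 with 0.0975. Of these 11 genes, 3 were higher and 1 was lower at an adjusted p of at most 0.05 by edgeR. Over all genes tested, 23.6% reached that p in either direction. Eif5a, the factor that carries the spermidine-derived hypusine, was named after its values were seen. It had 157 ± 9.57 CPM under GSK-J4 and 241 ± 20.2 CPM under LPS + GSK-J4, a log2-fold change of 0.62 ± 0.12 with an adjusted p of 0.00103. Atp13a2, also named after its values were seen, went the other way, with -0.54 ± 0.14 and an adjusted p of 0.0106. On the route from ornithine to proline and glutamate, 7 of 9 genes were tested and 0 called by edgeR, beside the same shares of all genes. Their median was 0.27. Aldh18a1, the pyrroline-5-carboxylate synthase, had 0.59 ± 0.21 with an adjusted p of 0.051.

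Over all 76 genes of the surrounding pathways, 56 were tested and 0 were called in either direction by edgeR or by DESeq2. In edgeR 2.95% of all genes tested were called up and 0.809% down. At an unadjusted p under 0.05 by edgeR, 12 were higher and 7 lower among the 56, and the share of all genes at that p was not computed. At an adjusted p of at most 0.05, 7 were higher and 3 were lower, and 2 of them, Ddah1 and Eif5a, reached 0.01. Over all genes tested 23.6% reached 0.05 and 13.9% reached 0.01, so these counts lay no higher than the background. The median log2-fold change was 0.04, with 32 genes above 0 and 24 below.

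**Figure D4:**
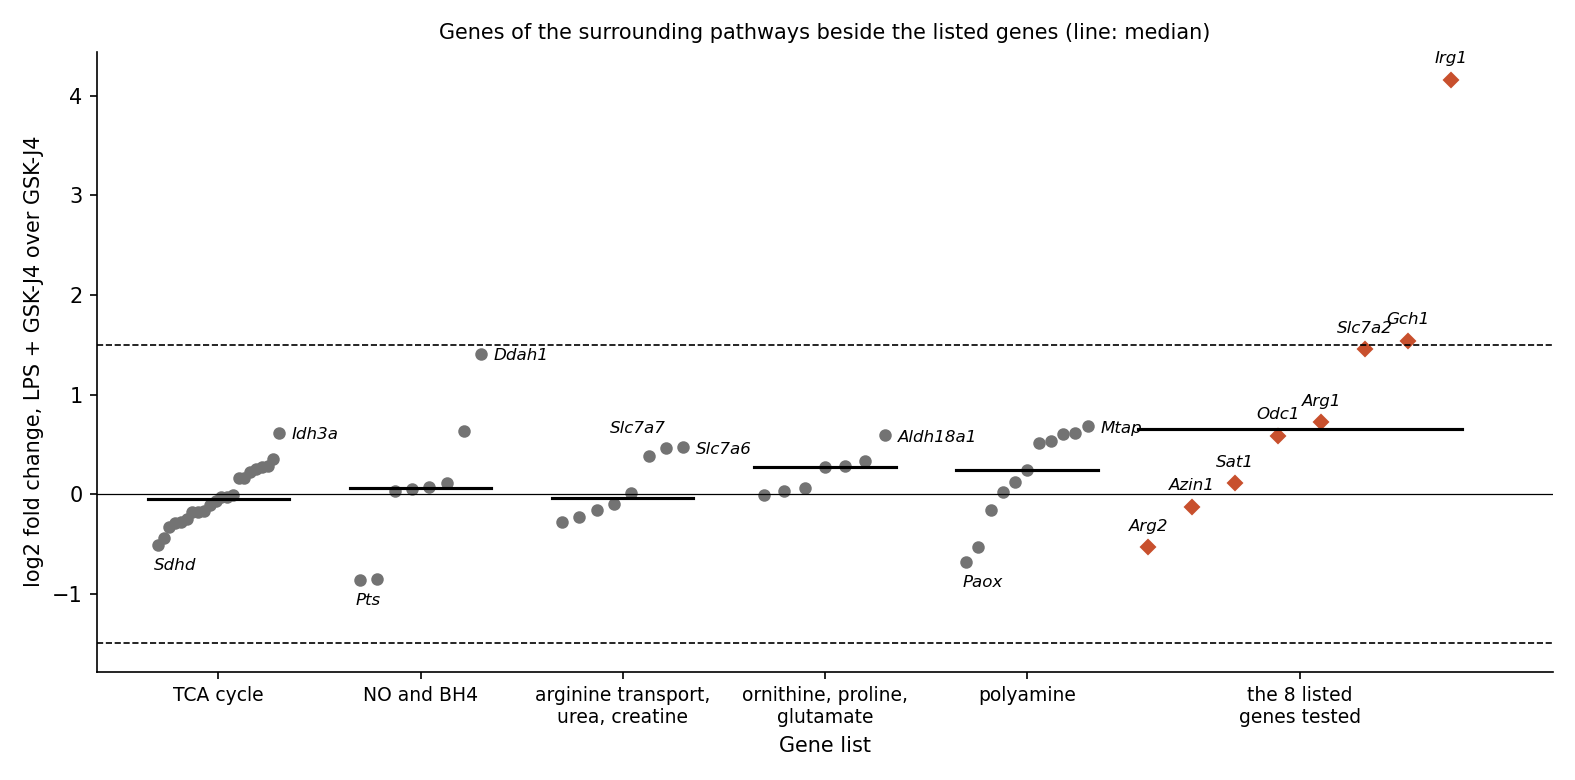
Log2-fold change of LPS + GSK-J4 over GSK-J4 for the 56 tested genes of the surrounding pathways (grey) and the 8 tested genes of the set (orange diamonds), with medians as lines and the threshold of 1.5 dashed. Each grey gene lay inside the thresholds, with Ddah1 (1.41) nearest, while Irg1 stood at 4.16; within a list, genes are sorted by value.

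Per length of transcript (RPKM, the CPM divided by the kilobases of the GENCODE exon union), the order of the genes was rearranged between the groups. Under GSK-J4, Sat1 was highest at 42.5 ± 3.99 RPKM (SD, n = 3), followed by Azin1 at 30.4 ± 3.30 and Arg2 at 30.3 ± 7.17, which overlapped. Slc7a2 at 19.3 ± 3.23, Irg1 at 16.2 ± 10.4 and Odc1 at 14.3 ± 1.26 RPKM came next. Irg1 overlapped both Slc7a2 and Odc1 and could not be ordered beside them. Each Slc7a2 value lay above each Odc1 value (lowest 16.3 against highest 15.7 RPKM). Arg1 at 6.73 ± 0.32, Gch1 at 2.63 ± 0.27 and Nos2 at 0.0964 ± 0.0509 RPKM followed, without overlap among themselves. The Irg1 values, 6.71 to 27.3 RPKM, also overlapped those of Arg1 (6.46 to 7.08) and of Arg2 (24.1 to 38.2). Under LPS + GSK-J4, Irg1 was highest at 298 ± 25.4 RPKM without overlap. Slc7a2 at 53.1 ± 8.63 and Sat1 at 45.9 ± 4.79 overlapped, as did Azin1 at 27.8 ± 7.66, Odc1 at 21.5 ± 1.63 and Arg2 at 21.1 ± 1.09. Arg1 at 11.0 ± 3.23 overlapped Gch1 at 7.61 ± 0.90, and Nos2 at 0.71 ± 0.86 RPKM was below.

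Each library lay at the edge of its group for most genes tested, and replicate 3 did so more often than replicates 1 and 2. The same held for replicate 3 over the 8 genes of the set. In LPS + GSK-J4 replicate 3, 4 of the 8 tested genes (Irg1, Slc7a2, Gch1 and Odc1) had their highest and the other 4 (Arg1, Arg2, Azin1 and Sat1) their lowest level of the group. In GSK-J4 replicate 3, 2 were highest and 6 lowest. Over all genes tested, replicate 3 was the highest or lowest of its group for 79.1% under LPS + GSK-J4 and 76.5% under GSK-J4. LPS + GSK-J4 replicate 1 was so for 7 of the 8 genes and 65.1% of all genes, and replicate 2 for 1 of 8 and 55.8%. GSK-J4 replicates 1 and 2 were so for 4 of the 8 each, and for 61.6% and 61.9% of all genes. The fibroblast markers were at 427 CPM in LPS + GSK-J4 replicate 3, against 138 and 241 CPM in the others, and their part in these values was not tested. Without LPS + GSK-J4 replicate 3, no gene of the set was called up, since Irg1 then had an adjusted p of 0.0233 and Gch1 a log2-fold change of 1.47.

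**Figure D5:**
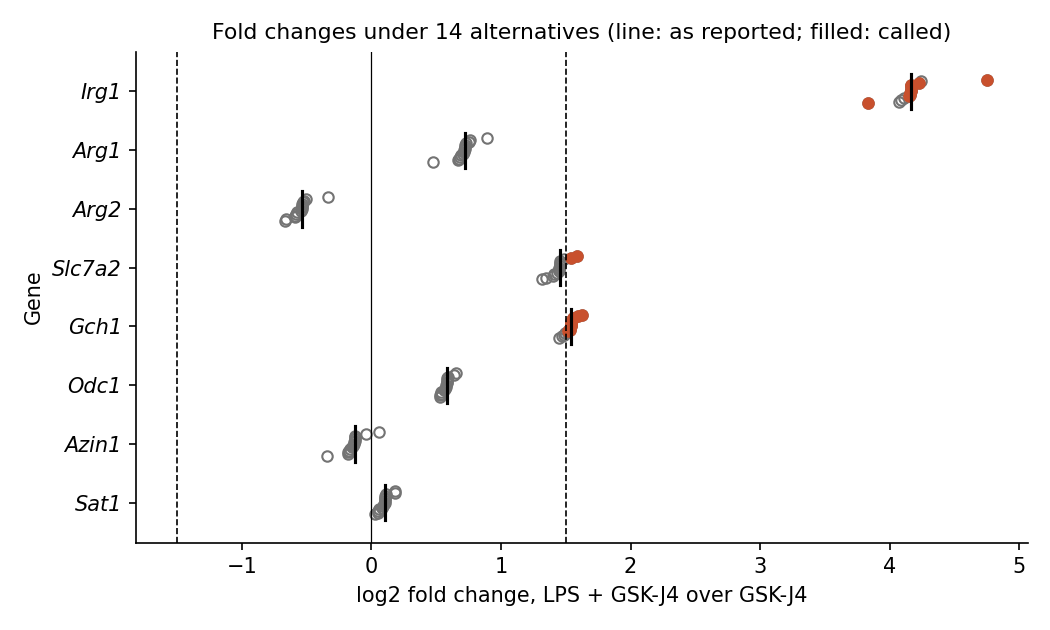
Log2-fold change of LPS + GSK-J4 over GSK-J4 for each tested gene under 14 alternatives (circles, filled where called) beside the reported value (vertical line), with the threshold of 1.5 dashed. Irg1 ranged from 3.83 to 4.75, Gch1 and Slc7a2 fell on both sides of the threshold, and Azin1 ranged from -0.34 to 0.0579.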

How the data were processed

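RNA-seq libraries of PM, 3 with GSK-J4 and 3 with LPS + GSK-J4, were grouped by the titles in the labels. RNA was depleted of ribosomal RNA and sequenced in pairs after a strand-specific library preparation. Per the labels, the authors trimmed reads with Trimmomatic 0.33, aligned them to mm10 with STAR 2.5.1 and deposited raw counts of uniquely mapped fragments per gene, for both strands and for each strand, with no normalization. CASAVA 1.8.2 and DESeq2 are also named there. The gene annotation used for counting is not given in the sources used here.

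The reverse-strand counts, which hold nearly all stranded fragments, were used, and the 4 tally lines were left out. Counts were tested with edgeR 4.0.16 (limma 3.58.1, R 4.3.3) by TMM factors, filterByExpr (minimum count 10, minimum total 15) and the robust quasi-likelihood test, with Benjamini-Hochberg adjustment over 10133 genes. The script was checked on simulated data. SE is the log2-fold change divided by the root of F, and errors of levels are SD. The depth of 2597505 to 3472716 fragments limits precision for genes such as Nos2. Ratios were tested by 2-sided exact permutation. Alternatives were unstranded counts, DESeq2 1.42.0 and its size factors, other filters, no robust estimation, removal of 3 ribosomal features, another threshold, a replicate block and leaving out each library.

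The genes, the pathway lists and the markers were chosen with earlier results of these data known. All 10 genes are named, and from each pathway list the genes called and the 2 others with the largest change, with partners of the ratios. A gene that this rule names is not reported here. Irg1 was matched to Acod1 by a RefSeq synonym. Positions are from GENCODE on mm10. Python 3.11.15 (pandas 2.3.3, numpy 2.4.6, matplotlib 3.10.9) was used for the tables and figures.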

Additional observations from a re-analysis of the deposited data

How the results depend on the processing

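The count of genes of the set called up, 2 as reported, was 1 with DESeq2, 1 with no filter on low counts (Nos2 alone) and 1 with the replicate block (Gch1), and it ranged from 0 to 3 as single libraries were left out, with 0 without GSK-J4 replicate 2 and 0 without LPS + GSK-J4 replicate 3. No alternative gave a gene of the set called down. Irg1 lost its call with no filter (4.11, adjusted p = 0.0142 by edgeR) and under the block (4.24, adjusted p = 0.0403). In the pathway lists 1 gene, Ddah1, was called up once the thresholds were relaxed to 0.05 for the adjusted p and 1 for the log2-fold change, and 0 under the others. Azin1 turned to 0.0579 without LPS + GSK-J4 replicate 3 (leave-one-out range -0.34 to 0.0579). The cause was not tested. Arg1, Arg2, Odc1 and Sat1 kept their direction and stayed uncalled in the 14 alternatives of each, though Arg1 and Arg2 passed an adjusted p of 0.05 in 9 of them each. Without the filter, the median of all genes was 0.12, and the call of Nos2 was lost also without GSK-J4 replicate 1 (2.33) and GSK-J4 replicate 3 (2.56); leaving out libraries there was added after seeing the data. Over all genes 299 were called up and 82 down, and 176 and 56 at 10 counts or more in every library. With motifs searched on the strand of the gene only, the TATA box of Gch1 was no match, and 38.0% and 8.32% of promoters held the kB-like motif and the TATA box.

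The labels do not say whether equal replicate numbers mark a shared culture, and 3 same-numbered pairs are too few to settle it. Deviations of same-numbered libraries correlated at -0.0102, 0.117 and 0.295 over genes. Of the GSK-J4 libraries only number 3 correlated best with its own number, and of the LPS + GSK-J4 libraries numbers 2 and 3. The mean was 0.134 for same and -0.0646 for other numbers. With the block in edgeR, 306 genes were called up and 90 down. For the ratios, sign-flip tests over same-numbered libraries gave 0.25 (exact) for Arg2/Arg1, Slc7a2/Slc7a1 and Azin1/Odc1, the smallest that 3 pairs allow. The 2 ratios at a partner listed at 0 (Ass1/Asl, Odc1/Oaz1) were not computed.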
